A study of Mus musculus with 30 samples.

Results

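Glucocorticoid-responsive genes were followed through the stages of chemically induced oral cancer in the mouse by 7 genes of the 55487 listed in the count table. They are Nr3c1, the gene of the glucocorticoid receptor, its responsive genes Fkbp5, Tsc22d3, Zbtb16, Klf9 and Sgk1, and Fam107a. The 7 were chosen by symbol, through the match of the table's Ensembl identifiers to GENCODE M21, and all 7 passed the low-count filter that left 17638 genes for testing. Fam107a was chosen from its own values in these samples, because it stood among the larger decreases of dysplasia against normal tissue. Its values in every comparison of stages that shares dysplasia or normal samples are therefore given as a description with no test. No member is tested in dysplasia against normal. Correlations within stages, given below, do include those samples, with the stage mean removed. No sample carries a label of a hormone treatment or a hormone level, so the name of the set comes from knowledge of these genes elsewhere and was not measured in this tissue.

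RNA sequencing covered 30 samples at 5 pathological stages, 3 of normal tissue, 8 of hyperplasia, 7 of dysplasia, 6 of carcinoma in situ and 6 of invasive carcinoma. In the model, male C57BL/6J mice drink 4NQO (4-nitroquinoline 1-oxide, a carcinogen that forms bulky DNA adducts) at 100 ug/mL for 10 weeks from 6 weeks of age. The labels put this protocol, and the tissue name oral squamous cell carcinoma, on all 30 samples, which leaves it unstated if normal tissue came from mice given 4NQO. They also give no age at collection and do not say that samples came from separate animals, so a p-value here covers only the spread seen among the samples. The letter of a sample code goes with its stage (normal D, hyperplasia A, dysplasia B, either carcinoma C), so any batch tied to that letter cannot be told apart from stage, except between carcinoma in situ and invasive carcinoma.

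Glucocorticoids, chiefly corticosterone in the mouse, enter the cell and bind the receptor, which the chaperone Hsp90 and its partners hold ready in the cytoplasm. The bound receptor moves to the nucleus, raises metabolic, circadian and anti-inflammatory genes through DNA elements built as an inverted repeat, and lowers many genes driven by NF-kB and AP-1. In muscle the hormone is known for raising the atrophy ubiquitin ligases and in stratified epithelium for its effect on barrier formation.

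The element itself is present in a promoter of Sgk1, a serine/threonine kinase that acts on ion transport and cell survival (ENSMUSG00000019970, chr10:21882184-21999903, plus strand). RefSeq promoter windows on GRCm38.p6, each 300 bases from 250 before to 50 after a start site, were searched for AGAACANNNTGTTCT, whose palindrome reads the same on both strands. It occurred in 3 of 32851 windows (0.00913%), which belong to Sgk1, Acnat2 and Gm35041. The Sgk1 window (chr10:21993640-21993939, plus strand) is shown because it holds the whole repeat, which starts at position -189 from the start site. None of the other Sgk1 windows holds the whole repeat, and some hold no arm. Capitals mark the arms AGAACA and TGTTCT, and the first TGTTCT marked is separate from the repeat.
Sgk1: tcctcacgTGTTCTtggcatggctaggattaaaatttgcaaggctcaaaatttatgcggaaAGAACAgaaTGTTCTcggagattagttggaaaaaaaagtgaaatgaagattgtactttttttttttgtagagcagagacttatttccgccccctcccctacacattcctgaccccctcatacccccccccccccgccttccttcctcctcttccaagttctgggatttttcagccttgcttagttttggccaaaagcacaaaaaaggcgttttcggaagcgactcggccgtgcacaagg
A single arm, on either strand and overlapping the whole repeat where that occurs, was found in 19.0% of all windows and in 6 of the 14 windows that 5 members have in the table. Fam107a, whose product binds actin and links it to microtubules (ENSMUSG00000021750, chr14:8296274-8318023, minus strand), has 2 separate arms in the window chr14:8309728-8310027 on the minus strand. A second listed window overlaps it almost entirely and holds the same arms, so they count more than once among the 6, and the window chr14:8317558-8317857 holds 0. The first window is shown because Fam107a is the member the set was built around; its first arm starts at position -160 from the start site, and capitals again mark the arms.
Fam107a: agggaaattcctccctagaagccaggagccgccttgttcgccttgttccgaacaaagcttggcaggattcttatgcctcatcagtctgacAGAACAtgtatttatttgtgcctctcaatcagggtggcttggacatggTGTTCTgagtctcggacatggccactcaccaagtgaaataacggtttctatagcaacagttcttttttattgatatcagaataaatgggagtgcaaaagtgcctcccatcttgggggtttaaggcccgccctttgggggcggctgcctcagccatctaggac
A match describes letters in the window and not binding, and no binding was measured here.

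Before the stages are compared, 1 library has to be named. Normal sample D01 stood apart from normal samples D02 and D03 over the members. Fkbp5 had 131 CPM (the count scaled to the TMM-adjusted library size) in D01, against 30.1 CPM in D02 and 26.7 CPM in D03. Zbtb16 had 87.2 CPM in D01, against 43.2 and 34.2 CPM, and Fam107a had 18.9 CPM, against 8.33 and 6.99 CPM. These 3 of 7 members were at least 2-fold higher in D01 than in both other normal samples, as were 923 of 17638 genes (5.23%). Fam107a was chosen for being high in normal tissue, a mean that D01 raises, so nothing is read from its place in this count. Of 38 other genes known as glucocorticoid-induced, none was at least 2-fold lower in D01, beside 464 of 17638 genes (2.63%). Among the 38, 7 were at least 2-fold higher. They include Pdk4, the kinase that shuts pyruvate dehydrogenase, with 3470 CPM in D01 against 711 CPM in D02 and 610 CPM in D03, and the muscle ubiquitin ligase Trim63, with 410 CPM against 129 and 111 CPM. These genes were named after their values were seen. Nr3c1 and Tsc22d3 went the other way and were lowest in D01. The same sample was also at least 2-fold higher for 11 of 12 salivary gland, 6 of 9 adipocyte and 6 of 7 neutrophil markers, and for 0 of 15 skeletal muscle markers. The part of this mixture in the member values was not tested. Each member call against normal tissue is given with and without D01, and other results against normal tissue only in part.

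**Figure D1:**
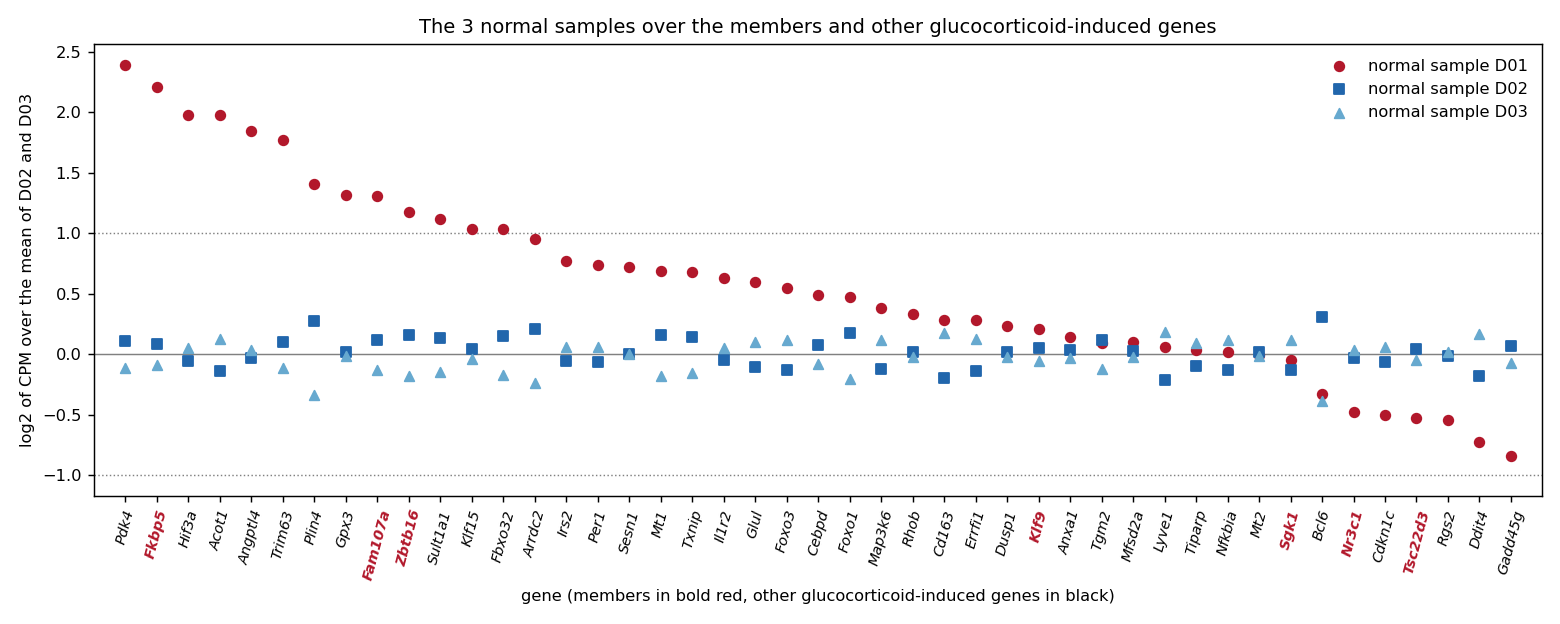
CPM of each normal sample over the mean of D02 and D03, on a log2 axis, for the 7 members (bold red names) and the 38 other glucocorticoid-induced genes, ordered by the ratio of D01. Circles are D01, squares D02 and triangles D03, and dotted lines mark 2-fold. Fkbp5 was 4.63-fold, Fam107a 2.46-fold and Zbtb16 2.25-fold higher in D01, while Nr3c1 and Tsc22d3 lie below 0.

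Total counts per library ran from 17725604 to 28023098, and the smallest member count in any sample was 29 (Fam107a in C01), so counting error is small beside the spread between samples for all members but Fam107a. The tissue was squamous epithelium over muscle, with basal Krt5 at 1580 to 2250 CPM and muscle Acta1 at 8000 to 11100 CPM in normal samples. In bulk tissue, fewer cells of a type and less RNA per cell cannot be told apart. Fold changes below are from edgeR's quasi-likelihood model over all 30 samples, as log2 ± 1 standard error, and a gene is called at a Benjamini-Hochberg adjusted p under 0.05 over all 17638 genes. Group values are means ± SD in CPM.

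**Figure D2:**
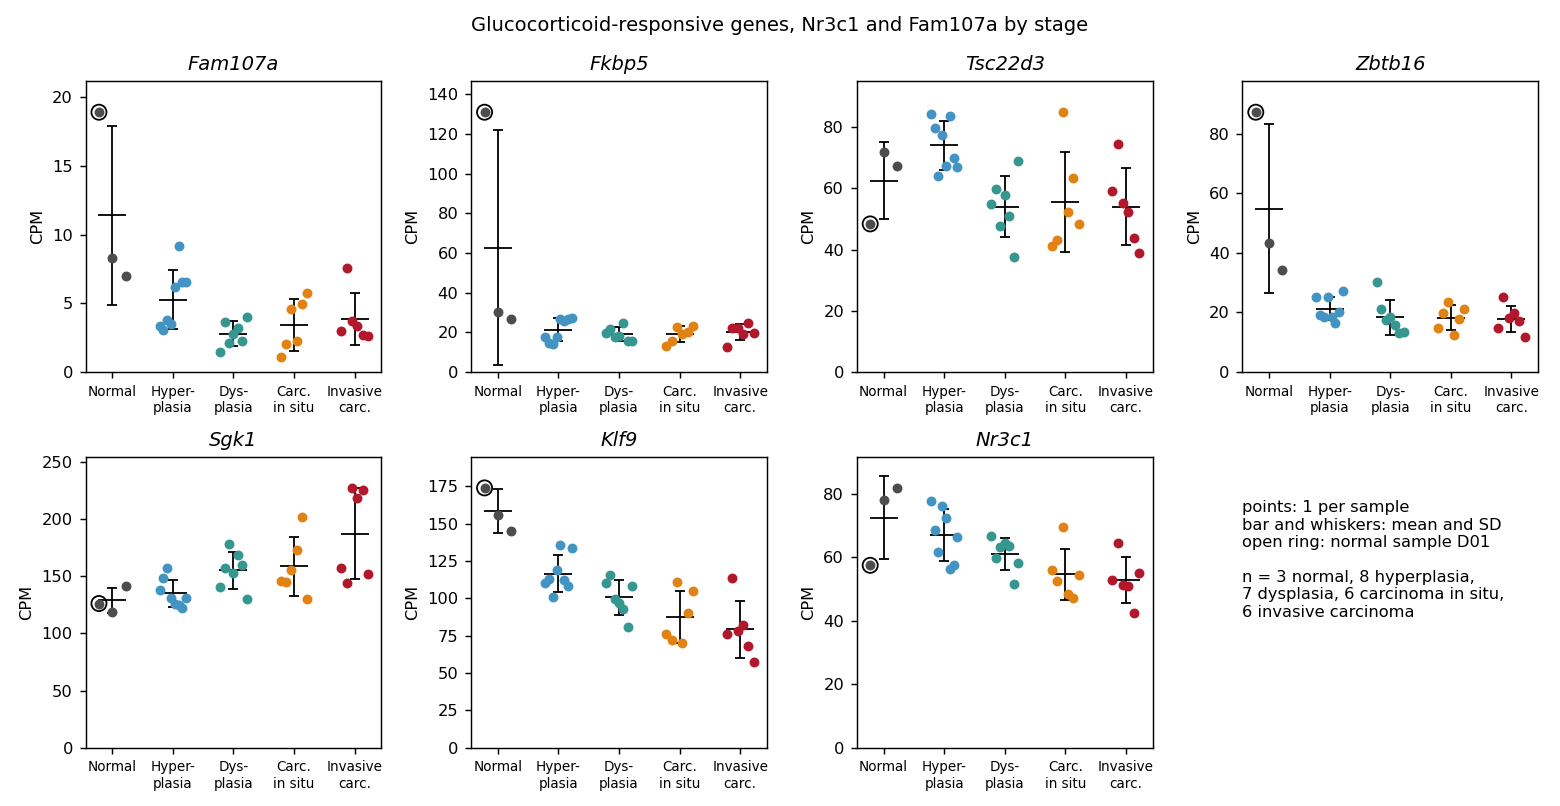
CPM of the 7 members in each of the 30 samples by stage, 1 point per sample, with the mean and SD of each stage as bar and whiskers and normal sample D01 ringed. The y axes start at 0. D01 is the highest of all samples for Fkbp5 (131 CPM), Zbtb16 (87.2 CPM) and Fam107a (18.9 CPM), Klf9 steps down with stage and Sgk1 steps up.

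The receptor gene was lower in both carcinoma stages than in normal tissue. Nr3c1 (ENSMUSG00000024431) had 57.5, 78.0 and 81.9 CPM in normal samples D01, D02 and D03. The lowest, median and highest values were 56.2, 67.4 and 77.9 CPM in hyperplasia, 51.5, 63.4 and 66.6 CPM in dysplasia, 47.1, 53.5 and 69.5 CPM in carcinoma in situ, and 42.4, 52.1 and 64.6 CPM in invasive carcinoma. Every lesion sample lay below D02 and D03, and every stage overlapped the normal group through D01. Nr3c1 fell in carcinoma in situ tissue, at 54.7 ± 8.02 CPM against 72.5 ± 13.1 CPM in normal tissue (-0.41 ± 0.12, adjusted p = 0.0117), and also in invasive carcinoma, at 52.9 ± 7.2 CPM (-0.46 ± 0.12, adjusted p = 0.004). Without D01 the changes were -0.54 (adjusted p = 0.00243) and -0.58 (7.09e-04). Without D02 or without D03 the carcinoma in situ call was lost (adjusted p = 0.0622 and 0.0878). In hyperplasia the change was -0.11 ± 0.12 (adjusted p = 0.581).

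Fkbp5, the co-chaperone that lowers the receptor's affinity for hormone and is itself induced by it (ENSMUSG00000024222, chr17:28399094-28517527, minus strand), was lower at every lesion stage, but the size of the change rested on D01. Beside the normal values given above, the lowest, median and highest values were 14.3, 21.8 and 27.3 CPM in hyperplasia, 15.5, 18.3 and 24.9 CPM in dysplasia, 13.1, 19.9 and 23.2 CPM in carcinoma in situ, and 12.8, 20.9 and 24.9 CPM in invasive carcinoma. Apart from 1 hyperplasia sample at 27.3 CPM, every lesion sample lay below the lowest normal value of 26.7 CPM. Fkbp5 fell in hyperplasia (-1.56 ± 0.30, adjusted p = 0.0011), carcinoma in situ (-1.72 ± 0.32, 3.35e-04) and invasive carcinoma (-1.64 ± 0.32, 2.59e-04). Without D01 these were -0.42, -0.56 and -0.48, and none was called (adjusted p = 0.24, 0.0756 and 0.118). In hyperplasia the samples coded A05 to A08 had 26.5, 25.9, 26.6 and 27.3 CPM and those coded A01 to A04 had 17.5, 14.5, 14.3 and 17.7 CPM, with no value between. The libraries of A05 to A08 were also the smaller ones, at 17725604 to 20335720 counts, against 22400499 to 26625949 counts for A01 to A04, and the part of depth or of an unlabelled batch in this gap was not tested.

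Zbtb16, a zinc finger repressor also known as PLZF (ENSMUSG00000066687, chr9:48654297-48836222, minus strand), was lower at every lesion stage whether or not D01 was counted. Its lowest, median and highest values were 16.4, 19.7 and 27.3 CPM in hyperplasia, 13.1, 17.3 and 30.1 CPM in dysplasia, 12.3, 18.9 and 23.6 CPM in carcinoma in situ, and 11.9, 17.7 and 25.1 CPM in invasive carcinoma. No lesion sample reached the lowest normal sample, D03 at 34.2 CPM. Zbtb16 fell in hyperplasia (21.3 ± 3.98 against 54.9 ± 28.3 CPM in normal tissue; -1.36 ± 0.24, adjusted p = 3.81e-04), carcinoma in situ (-1.59 ± 0.25, 7.43e-05) and invasive carcinoma (-1.62 ± 0.25, 3.15e-05). Without D01 the changes were -0.87 (adjusted p = 0.0156), -1.07 (0.0021) and -1.11 (8.94e-04). Lesion stages differed little among themselves, with -0.26 ± 0.20 in invasive carcinoma against hyperplasia (adjusted p = 0.332).

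Klf9, a Krüppel-like factor that links glucocorticoid and clock signals to keratinocyte proliferation (ENSMUSG00000033863, chr19:23141226-23168134, plus strand), stepped down with stage. It had 174, 156 and 145 CPM in normal samples D01, D02 and D03. Its lowest, median and highest values were 101, 112 and 136 CPM in hyperplasia, 80.8, 99.7 and 116 CPM in dysplasia, 70.4, 83.0 and 111 CPM in carcinoma in situ, and 57.7, 77.0 and 114 CPM in invasive carcinoma. All lesion samples lay below all 3 normal samples. Klf9 fell in carcinoma in situ (87.5 ± 17.5 against 158 ± 14.7 CPM in normal tissue; -0.85 ± 0.15, adjusted p = 1.89e-04) and also in invasive carcinoma (79.4 ± 19.1 CPM; -0.99 ± 0.15, 2.16e-05), with -0.77 and -0.91 without D01 (adjusted p = 0.00144 and 1.96e-04). In hyperplasia it fell by 0.44 ± 0.15 on the log2 scale (adjusted p = 0.0427), a call lost in 6 of the 11 fits that left out 1 sample (adjusted p up to 0.127, without D01) and with limma-voom (0.0615). In invasive carcinoma against hyperplasia, a comparison without the normal samples, it fell too (-0.56 ± 0.12, adjusted p = 9.05e-04), and 5 of 6 invasive carcinomas lay below every hyperplasia sample.

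Tsc22d3, which encodes the anti-inflammatory protein GILZ (ENSMUSG00000031431, chrX:140539528-140600659, minus strand), did not pass the test in any comparison with normal tissue. It had 48.4, 71.9 and 67.4 CPM in normal samples D01, D02 and D03. Its lowest, median and highest values were 64.1, 73.7 and 84.2 CPM in hyperplasia, 37.6, 55 and 68.9 CPM in dysplasia, 41.1, 50.3 and 84.9 CPM in carcinoma in situ, and 39.0, 53.7 and 74.5 CPM in invasive carcinoma. Hyperplasia was the highest stage and its samples overlapped with 2 normal samples and with the upper samples of each later stage. Against normal tissue the changes were 0.25 ± 0.19 for hyperplasia, -0.17 ± 0.20 for carcinoma in situ and -0.21 ± 0.20 for invasive carcinoma (adjusted p = 0.419, 0.515 and 0.388). With 1 sample left out at a time they ran from 0.08 to 0.34, from -0.33 to -0.06 and from -0.36 to -0.10. In invasive carcinoma against hyperplasia Tsc22d3 fell, at 54.0 ± 12.5 against 74.2 ± 7.99 CPM (-0.46 ± 0.15, adjusted p = 0.019), with 5 of 6 samples below every hyperplasia sample. Without C09 or without C12 the adjusted p was 0.0554 and 0.0609. Dysplasia was as far from hyperplasia (-0.46 ± 0.15, adjusted p = 0.0621), and that difference was called by DESeq2 (0.0289), by limma-voom (0.0483) and in a fit of those stages alone (0.0106).

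Sgk1 rose in invasive carcinoma. It had 126, 119 and 141 CPM in normal samples D01, D02 and D03. Its lowest, median and highest values were 122, 131 and 157 CPM in hyperplasia, 130, 157 and 178 CPM in dysplasia, 130, 151 and 202 CPM in carcinoma in situ, and 144, 188 and 227 CPM in invasive carcinoma. All 6 invasive carcinomas lay above all 3 normal samples, 3 of them (C06, C08 and C09) at 218 CPM or more and 3 between 144 and 157 CPM. Sgk1 rose in invasive carcinoma against normal tissue (187 ± 39.9 against 129 ± 11.1 CPM; 0.54 ± 0.14, adjusted p = 0.00316) and against hyperplasia (135 ± 12.2 CPM; 0.47 ± 0.11, 0.00114). Without D01 the change against normal tissue was 0.54 (adjusted p = 0.0129). Carcinoma in situ was 0.30 ± 0.14 above normal tissue and did not pass the test (adjusted p = 0.0961).

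Fam107a, described here without a test wherever dysplasia or normal tissue is involved, had 18.9, 8.33 and 6.99 CPM in normal samples D01, D02 and D03. Its lowest, median and highest values were 3.09, 5.01 and 9.14 CPM in hyperplasia, 1.44, 2.77 and 4.00 CPM in dysplasia, 1.06, 3.44 and 5.76 CPM in carcinoma in situ, and 2.65, 3.18 and 7.58 CPM in invasive carcinoma. The dysplasia and carcinoma in situ samples lay below all 3 normal samples, 1 hyperplasia sample (A06) reached 9.14 CPM and 1 invasive carcinoma (C05) reached 7.58 CPM. The log2 change against normal tissue was -1.11 ± 0.39 for hyperplasia, -2.03 ± 0.40 for dysplasia, -1.72 ± 0.42 for carcinoma in situ and -1.57 ± 0.42 for invasive carcinoma. Without D01 these were -0.54, -1.45, -1.14 and -0.99. In hyperplasia, samples A05 to A08 were again the higher ones, at 6.21, 9.14, 6.53 and 6.52 CPM, with 3.36, 3.09, 3.82 and 3.52 CPM in A01 to A04. The comparisons with hyperplasia and with carcinoma in situ held neither group used to choose the gene. Invasive carcinoma averaged 3.84 ± 1.88 CPM against 5.27 ± 2.16 CPM in hyperplasia (-0.46 ± 0.34, adjusted p = 0.298), and against 3.45 ± 1.89 CPM in carcinoma in situ (0.15 ± 0.36, adjusted p = 0.938). Neither passed the test, and without C05 the changes were -0.76 against hyperplasia and -0.16 against carcinoma in situ, the second with its sign turned (adjusted p = 0.0724 and 0.881).

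**Figure D3:**
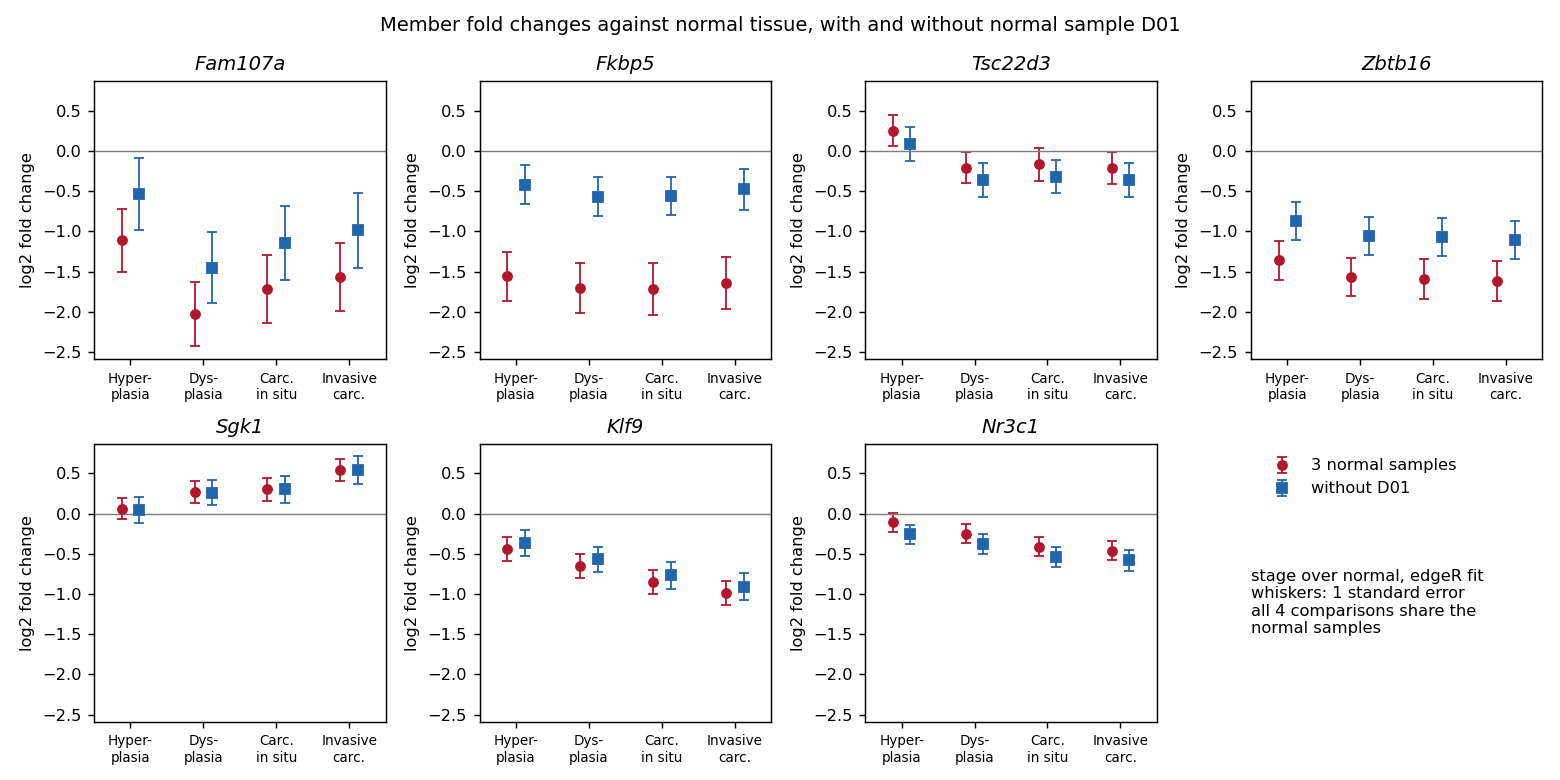
Log2 fold change of each member at each lesion stage over normal tissue, with 1 standard error, from the fit with 3 normal samples (circles) and the fit without D01 (squares). In invasive carcinoma Fkbp5 moves to -0.48 without D01, against -1.64 with it, Zbtb16 moves to -1.11, against -1.62, and Sgk1 is at 0.54 in both fits.

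Counted together, the members that fell outnumbered those that rose against normal tissue, and the share of all genes called grew with stage too. In hyperplasia 3 of 6 tested members were called lower (Fkbp5, Zbtb16 and Klf9) and 0 higher, beside 6.07% of all genes called lower and 8.22% higher. In carcinoma in situ 4 of 6 were called lower (Fkbp5, Zbtb16, Klf9 and Nr3c1) and 0 higher, beside 18.2% of all genes lower and 19.4% higher. In invasive carcinoma the same 4 were called lower and Sgk1 higher, beside 22.7% of all genes lower and 23.4% higher. These comparisons share the 3 normal samples and are not independent of each other. Without D01 the counts were 1 of 6 in hyperplasia (Zbtb16), 3 of 6 in carcinoma in situ and 4 of 6 in invasive carcinoma, beside 2428, 5825 and 7270 genes called in either direction, against 2519, 6630 and 8127 genes with D01.

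Invasive carcinoma against hyperplasia uses no normal sample and tested all 7 members. Tsc22d3, Klf9 and Nr3c1 were called lower and Sgk1 higher, beside 19.2% of all genes called lower and 19.1% called higher. Nr3c1 was at 52.9 ± 7.2 CPM in invasive carcinoma against 67.1 ± 8.14 CPM in hyperplasia (-0.34 ± 0.10, adjusted p = 0.00689). Fkbp5, which was far from normal sample D01 at both stages, differed by -0.08 ± 0.26 between them (adjusted p = 0.844).

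Neighbouring lesion stages gave no member call. In dysplasia against hyperplasia 0 of 6 tested members were called by edgeR, beside 5.18% of all genes; 1 had an unadjusted p under 0.05, and DESeq2 and limma-voom each called 1, Tsc22d3. In carcinoma in situ against dysplasia 0 of 6 were called by edgeR, DESeq2 or limma-voom, beside 5.47% of all genes by edgeR, and 0 had an unadjusted p under 0.05. Between invasive carcinoma and carcinoma in situ 0 of 7 members and 0 of all genes (0%) were called by edgeR, DESeq2 or limma-voom, while 1 member and 1259 genes (7.14%) had an unadjusted p under 0.05. The largest member difference there was Sgk1, at 187 ± 39.9 CPM in invasive carcinoma against 158 ± 25.5 CPM in carcinoma in situ (0.24 ± 0.11, adjusted p = 0.694).

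Per length of exon, Klf9 and Sgk1 were the most abundant members and Fam107a the least. In invasive carcinoma the levels in CPM per kb were 38.2 ± 8.15 for Sgk1, 16.5 ± 3.97 for Klf9, 12.4 ± 2.89 for Tsc22d3, 6.88 ± 0.937 for Nr3c1, 3.37 ± 0.85 for Zbtb16, 2.13 ± 0.436 for Fkbp5 and 0.992 ± 0.485 for Fam107a. In normal tissue they were 26.3 ± 2.26 for Sgk1, 32.8 ± 3.05 for Klf9, 14.4 ± 2.87 for Tsc22d3, 9.43 ± 1.71 for Nr3c1, 10.4 ± 5.37 for Zbtb16, 6.63 ± 6.29 for Fkbp5 and 2.94 ± 1.68 for Fam107a. Klf9 thus ranked above Sgk1 in normal tissue and below it in invasive carcinoma. In normal tissue Zbtb16, Nr3c1 and Fkbp5 did not differ beyond their spread, and the sample ranges of Klf9 and Tsc22d3 overlapped in invasive carcinoma.

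Markers of several cell types moved with stage beside the members. In invasive carcinoma against hyperplasia, 8 of 8 endothelial, 7 of 8 fibroblast, 7 of 8 Schwann cell and 10 of 15 skeletal muscle markers were called lower, and 5 of 7 basal keratinocyte markers higher. The summed endothelial markers ran from 203 to 334 CPM in invasive carcinoma, from 325 to 524 CPM in hyperplasia and from 434 to 493 CPM in normal tissue. Skeletal muscle markers summed to 16900 to 41200 CPM in invasive carcinoma, 36900 to 65700 CPM in hyperplasia and 57400 to 75700 CPM in normal tissue. Basal keratinocyte markers summed to 8240 to 20800 CPM in invasive carcinoma, 5450 to 7860 CPM in hyperplasia and 4420 to 5820 CPM in normal tissue. With the mean log2 muscle score in the fit, Sgk1 was the 1 member still called in invasive carcinoma against hyperplasia, and Nr3c1 was no longer called against normal tissue (adjusted p = 0.149 for carcinoma in situ and 0.321 for invasive carcinoma). Far fewer of all genes were called with the muscle score too, so the lost calls are not particular to the members. Those gene numbers are given below with the dependence on processing. With the endothelial or the basal keratinocyte score in the fit, 0 of 7 members were called in invasive carcinoma against hyperplasia by edgeR, while 151 and 538 genes were. Against normal tissue, invasive carcinoma had 2 of 6 members called with the endothelial score and 0 of 6 with the basal keratinocyte score, beside 893 and 733 genes. The scores themselves differ between stages, with little or no overlap for the endothelial and basal keratinocyte sums of invasive carcinoma and hyperplasia. A fit with such a score therefore cannot separate tissue make-up from stage. The part of tissue make-up in the member changes was not tested.

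Other genes of the pathway were counted from 4 lists. Glucocorticoid-induced genes outside the set changed in both directions. Set against normal tissue, invasive carcinoma had 11 of 38 that rose and 16 that fell, beside 23.4% of all genes higher and 22.7% lower, with a list median of -0.21 beside 0.02 over all genes. Anxa1, the anti-inflammatory annexin A1, reached 1380 ± 714 CPM against 269 ± 17.1 CPM in normal tissue (2.36 ± 0.36, adjusted p = 2.4e-05). Nfkbia, the inhibitor that holds NF-kB in the cytoplasm, rose to 146 ± 39.8 CPM, against 57.8 ± 4.99 CPM in normal tissue (1.33 ± 0.19). The small GTPase gene Rhob rose by 0.60 ± 0.10. The muscle ubiquitin ligases fell, Trim63 to 59.2 ± 12.5 CPM against 217 ± 168 CPM in normal tissue (-1.87 ± 0.27, and -1 without D01) and Fbxo32 to 157 ± 39.6 CPM against 426 ± 194 CPM (-1.44 ± 0.21, and -1 without D01). The lipid droplet gene Plin4 was at 83.5 ± 25.7 CPM against 299 ± 189 CPM (-1.84 ± 0.30, and -1.20 without D01). Without D01 the counts were 11 higher and 12 lower.

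At the other stages the number of induced genes that fell against normal tissue depended on D01. In hyperplasia against normal tissue 2 of 38 induced genes rose (Rhob and the metallothionein gene Mt2, which was named after its values were seen) and 8 fell, beside 8.22% of all genes higher and 6.07% lower, with a list median of -0.03 beside 0.01 over all genes. Without D01 only 1 rose and 1 fell, Rhob and Fbxo32 (0.41 and -0.60, adjusted p = 0.0137 and 0.0408), and the median was 0.23. In carcinoma in situ 9 rose and 14 fell, beside 19.4% of all genes higher and 18.2% lower, and without D01 9 rose and 8 fell. Against hyperplasia, 11 rose and 10 fell in invasive carcinoma, beside 19.1% of all genes higher and 19.2% lower, with Anxa1 at 1.97 ± 0.24, Nfkbia at 0.93 ± 0.14 and the glutamine synthetase gene Glul at 0.83 ± 0.13.

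Inflammatory genes that glucocorticoids are known to repress rose at the carcinoma stages. Of 21 tested, 18 rose and 0 fell in invasive carcinoma against normal tissue, beside 23.4% of all genes higher and 22.7% lower. The list median was 3.74, and without D01 17 rose and 0 fell. Both the count and the median rest partly on genes near the floor in normal tissue. Examples are Cxcl2 (0 CPM), Il6 and Csf3 (0.0147 CPM each) and Ccl3 (0.0368 CPM). Such genes could pass the low-count filter through the carcinoma stages and could hardly be called lower, so the counts of this list are a description. The cytokine gene Il1b was at 28.8 ± 28 CPM in invasive carcinoma against 0.319 ± 0.0822 CPM in normal tissue (6.46 ± 0.98, adjusted p = 2.7e-05), and the adhesion molecule gene Icam1 at 28.8 ± 5.35 CPM against 16.1 ± 3.64 CPM (0.84 ± 0.17). Carcinoma in situ had 17 higher and 0 lower against normal tissue, beside 19.4% of all genes higher and 18.2% lower. Against dysplasia it had 12 higher and 0 lower, beside 5.47% of all genes called in either direction. In hyperplasia against normal tissue 2 rose (Ccl20 and Il1b) and 0 fell, beside 8.22% of all genes higher and 6.07% lower. The share that rose there was near that of all genes. Invasive carcinoma against hyperplasia had 19 higher and 2 lower, beside 19.1% of all genes higher and 19.2% lower. The 2 lower genes were Nos2 and Vcam1, named after their values were seen. Il6 and Csf3 were near the floor in hyperplasia too (0.143 and 0.0605 CPM). Neutrophil markers moved in the same comparisons, with sums of 1320 to 7080 CPM in invasive carcinoma, 16.5 to 1360 CPM in hyperplasia and 8.57 to 76.4 CPM in normal tissue, and their part in the inflammatory genes was not tested.

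Of 25 receptor partners and steroid enzymes tested, 4 rose and 4 fell in invasive carcinoma against normal tissue, beside 23.4% of all genes higher and 22.7% lower, with a median of 0.03. These are smaller shares of the list than of all genes, a difference that was not tested. The Hsp90 co-chaperone gene Ptges3 rose to 116 ± 5.77 CPM, against 84.3 ± 4.72 CPM in normal tissue (0.47 ± 0.09, adjusted p = 2.27e-04), and Hsp90aa1 rose by 0.62 ± 0.19 (0.00732; 0.058 without D01). Bag1, another chaperone partner of the receptor, fell to 131 ± 12 CPM, against 167 ± 14.3 CPM (-0.35 ± 0.08), and the coactivators Ncoa3 and Ncoa2 changed by -0.40 ± 0.11 and -0.30 ± 0.09 (for Ncoa2 adjusted p = 0.00656, and 0.0842 without D01). In hyperplasia against normal tissue 1 rose and 2 fell, beside 8.22% of all genes higher and 6.07% lower.

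Paralogs did not all follow their member. Of 13 tested, 3 rose and 6 fell in invasive carcinoma against normal tissue, beside 23.4% of all genes higher and 22.7% lower, so the share that rose was near that of all genes. Fam107b, the relative of Fam107a, was at 40.3 ± 3.82 CPM in invasive carcinoma against 62.4 ± 9 CPM in normal tissue (-0.63 ± 0.14, adjusted p = 6.46e-04; -0.53 without D01). Klf10 rose to 67.5 ± 19.3 CPM, against 37.6 ± 6.55 CPM (0.84 ± 0.19), and Klf13 and Klf16 rose by 0.27 ± 0.10 and 0.49 ± 0.17, while Klf9 fell. Tsc22d1 and Tsc22d4 changed by -0.43 ± 0.11 and -0.27 ± 0.09 (adjusted p = 0.00251 and 0.0134). Sgk3 differed by -0.08 ± 0.10 (adjusted p = 0.55). Of the steroid receptor genes related to Nr3c1, Pgr changed by -1.45 ± 0.33 (0.831 ± 0.425 against 2.31 ± 0.905 CPM in normal tissue) and the mineralocorticoid receptor gene Nr3c2 by -0.74 ± 0.25 (adjusted p = 8.96e-04 and 0.0163).

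**Figure D4:**
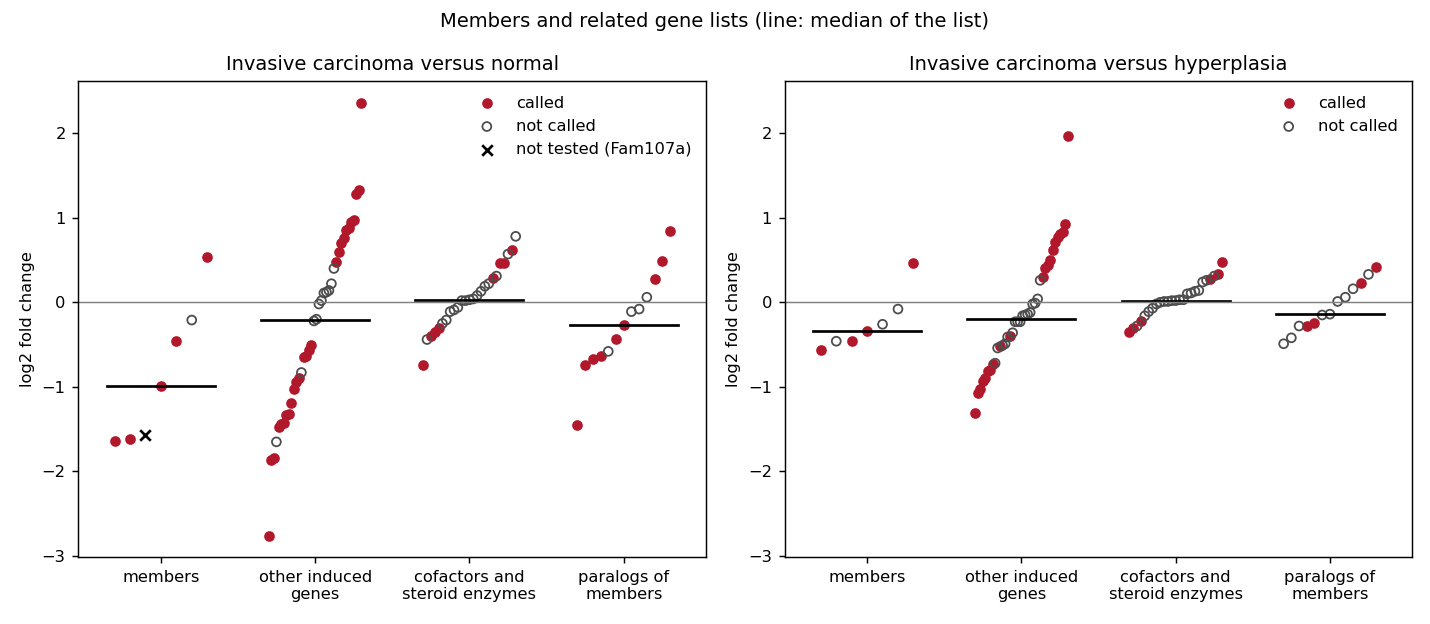
Log2 fold changes of the 7 members, 38 other glucocorticoid-induced genes, 25 receptor cofactors and steroid enzymes and 13 paralogs in invasive carcinoma against normal tissue (left) and against hyperplasia (right). Filled points were called, open points were not, the cross is Fam107a where it was not tested, and lines are list medians. The other induced genes spread to both sides of 0 in both panels, with medians of -0.21 and -0.19.

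Over 30 samples with the stage mean removed from log2 CPM, 5 of 21 member pairs had an adjusted p under 0.05 (two-sided permutation within stages, Benjamini-Hochberg over the 21 pairs). The 30 samples include the dysplasia and normal samples from which Fam107a was chosen. That choice rested on the difference between those stages, which is removed here, and any part of it in the p-values of Fam107a was not tested. Fam107a and Fkbp5 had r = 0.64 (permutation p = 0.00018, adjusted 0.0019) and rho = 0.62 (p = 0.00085, adjusted 0.0089), and r was 0.65 without C01 and C05, the samples farthest from the median of Fam107a. Within single stages this r was 0.90 for hyperplasia, 0.11 for dysplasia, 0.94 for carcinoma in situ and 0.22 for invasive carcinoma, so it was high in 2 of the 4 lesion stages. The hyperplasia value goes with the gap between A01 to A04 and A05 to A08 described above, which also separates larger from smaller libraries, and the part of depth or batch in this r was not tested. Zbtb16 and Klf9 had r = 0.66 (permutation p = 9e-05, adjusted 0.0019) and rho = 0.66 (p = 0.00031, adjusted 0.0065), with 0.72 without D01 and B01 and between 0.34 and 0.93 within the 4 lesion stages.

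The other 3 pairs no longer passed the test without the 2 samples farthest from the median. Fam107a and Klf9 had r = 0.63 (permutation p = 0.0012, adjusted 0.0081) and rho = 0.59 (p = 0.0028, adjusted 0.02), and 0.53 without C01 and C05 (unadjusted p = 0.0092, adjusted p = 0.064), with r above 0 within all 4 lesion stages. Tsc22d3 and Klf9 had r = 0.61 (permutation p = 0.003, adjusted 0.016) and rho = 0.46 (p = 0.025, adjusted 0.11), and 0.46 without B06 and C04 (adjusted p = 0.19). Tsc22d3 and Nr3c1 had r = 0.51 (permutation p = 0.01, adjusted 0.042) and rho = 0.39 (p = 0.05, adjusted 0.15), and 0.29 without the same samples (adjusted p = 0.42). Without D01 this pair had 0.45 (adjusted p = 0.09), while Fam107a with Tsc22d3 (0.52), Klf9 with Nr3c1 (0.52) and Zbtb16 with Nr3c1 (0.51) then had adjusted p-values of 0.046, 0.046 and 0.034. Sgk1 had r between -0.31 and -0.02 with the 6 other members, and none of these passed the test.

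Cell type scores were set beside the members in the same samples. Of the 84 pairs of a member and a cell type score, Fam107a, Fkbp5 and Sgk1 had 0 with an adjusted permutation p under 0.05, Zbtb16 had 5, and Tsc22d3, Klf9 and Nr3c1 had 4 each. Whether members differ in these counts was not tested: Fkbp5 with the adipocyte score had r = 0.53 (adjusted permutation p = 0.056) and Tsc22d3 with the muscle score had r = 0.53 (0.03). The 4 Tsc22d3 calls were lost by rank (adjusted p from 0.073 to 0.16) and without the 2 farthest samples (0.063 to 0.3). Without the 2 farthest samples Klf9 and Zbtb16 kept only the basal keratinocyte score (adjusted permutation p = 8.4e-04 and 0.028). Their other calls then had adjusted p from 0.088 to 0.3 for Klf9 and from 0.06 to 0.16 for Zbtb16. Nr3c1 kept the endothelial and muscle scores (0.0046 and 0.028) and lost the fibroblast and pericyte scores (0.11 and 0.12). Klf9 and the basal keratinocyte score had r = -0.79 and rho = -0.77 (adjusted permutation p = 0.0011 for r), with -0.80 without the farthest samples. Zbtb16 and the same score had r = -0.73 and rho = -0.72 (adjusted permutation p = 0.0011), with -0.63 without the farthest samples. Nr3c1 and the endothelial score had r = 0.74 and rho = 0.69 (adjusted permutation p = 0.0011), with 0.70 without the farthest samples. Fam107a ranged from -0.32 to 0.20 over the 12 scores. Without the 2 farthest samples its r was -0.56 with the basal keratinocyte score and 0.37 with the adipocyte score (adjusted permutation p = 0.088 and 0.31).

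**Figure D5:**
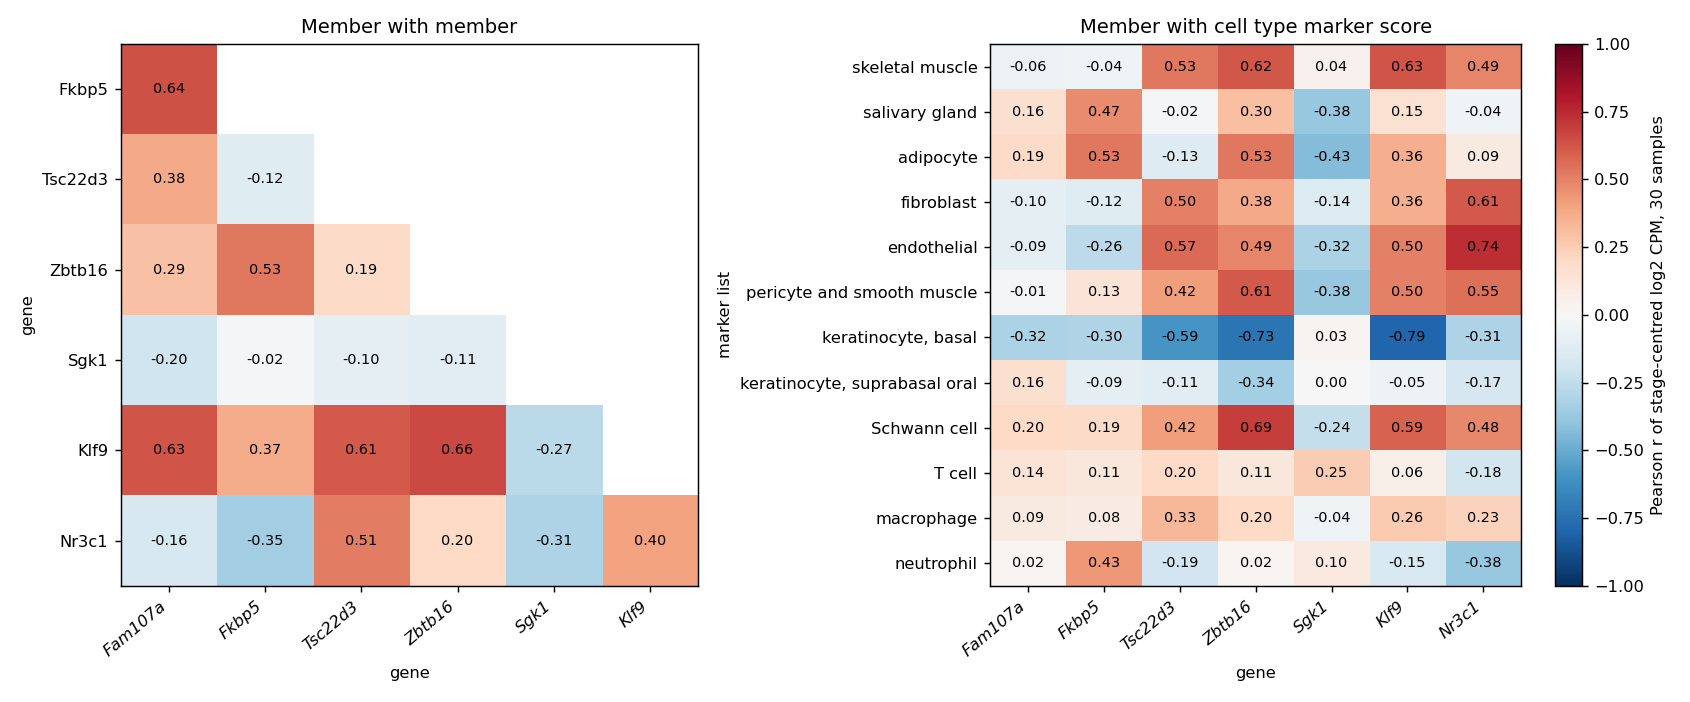
Pearson r of log2 CPM with the stage mean removed, over 30 samples, between members (left) and between members and the mean log2 CPM of 12 cell type marker lists (right). Red is positive and blue negative. Fam107a pairs with Fkbp5 (0.64) and Klf9 (0.63) and stays pale on the right, where Klf9 and Zbtb16 are blue for basal keratinocytes (-0.79 and -0.73) and Nr3c1 is red for endothelium (0.74).

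Of 13301 named genes averaging 1 CPM or more, the gene whose stage-centred level followed Fam107a most closely was Arrdc2 (r = 0.86 over 30 samples, 0.85 without D01), an arrestin-domain gene that is itself on the list of glucocorticoid-induced genes. Next came Ankrd9 (0.74) and Timp4 (0.70), and without D01 Mn1 (0.75) and Kcna5 (0.72). Zbtb16 was nearest to Gpihbp1 (0.88), the capillary anchor of lipoprotein lipase, Klf9 to the glutamine transporter gene Slc38a3 (0.87), and Nr3c1 to Usp24 and Mtr (0.91 each). The nearest genes were at 0.80 for Tsc22d3 (Rtl8a), 0.76 for Sgk1 (Fam92a) and 0.75 for Fkbp5 (Tbp). Without D01 the nearest were Mn1 for Klf9 (0.88), S1pr1 for Tsc22d3 (0.80), Med4 for Sgk1 (0.77) and Sgms1 for Fkbp5 (0.69). Zbtb16 was still nearest to Gpihbp1 (0.85) and Nr3c1 to Mtr (0.91). These values are the highest of many and are given as a description.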

How the data were processed

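Raw counts per Ensembl gene were deposited by the authors as 1 table for 30 samples; the submitters' processing notes name cutadapt 2.4, STAR 2.7.2a and the build GRCm38. Per the labels, the library kit was a stranded one for mRNA. The counting tool, its strand setting and the annotation are not given in the sources used here. Of 55487 identifiers, 55227 (99.53%) matched GENCODE M21; no exon of a member overlaps another gene.

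Counts were tested with edgeR 4.0.16 (R 4.3.3; TMM factors 0.892 to 1.06, default low-count filter, robust quasi-likelihood fit, 1 mean per stage, all samples), which kept 17638 genes at a biological coefficient of variation of 24%. The code was tested on simulated data. Adjusted p-values are Benjamini-Hochberg within a comparison. Correlations used 100000 permutations within stages. Alternatives used DESeq2 1.42.0, limma-voom (limma 3.58.1), other scalings and filters, marker scores as covariates and left-out samples. Tables and figures used Python 3.11.15.

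The members, lists and tests were chosen with earlier results of these data known. Genes named from a list are among its 6 smallest p-values in invasive carcinoma or hyperplasia against normal tissue, or in invasive carcinoma against hyperplasia, and all tested paralogs could be named. Exceptions chosen after their values were seen are the genes named for sample D01 or for low levels, Mt2, Nos2 and Vcam1. The result of 1 gene is not reported here.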

Additional observations from a re-analysis of the deposited data

Results flagged for a closer look

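Fam107a in invasive carcinoma had 1 sample far from the others. C05 was at 7.58 CPM and the next highest sample at 3.71 CPM, so that the gap took 0.785 of the group's range, above Dixon's 95% critical value of 0.625 for 6 samples. Chance flags about 1 in 20 groups, and this was 1 flag in 28 groups of a member and a stage. The same sample was also the highest invasive carcinoma for Klf9 (114 CPM), Tsc22d3 (74.5 CPM), Zbtb16 (25.1 CPM) and Nr3c1 (64.6 CPM), and the lowest for Sgk1 (144 CPM).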

How the results depend on the processing

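Removing 1 sample at a time, members called ran from 1 to 3 in hyperplasia against normal tissue, 3 to 4 in carcinoma in situ, 4 to 5 in invasive carcinoma, 0 to 1 in dysplasia against hyperplasia, and 3 to 4 in invasive carcinoma against hyperplasia. The genes called ran from 896 to 2878, 4221 to 7353, 6101 to 8617, 509 to 1414 and 5353 to 7474 in those comparisons, from 167 to 2263 in carcinoma in situ against dysplasia, and from 0 to 1 between the carcinoma stages.

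Against normal tissue, an adjusted p under 0.01 gave 987 genes in hyperplasia and 3972 in carcinoma in situ. With the muscle score as a covariate 3034 genes were called for carcinoma in situ and 2167 for invasive carcinoma, with the endothelial score 1985 and 893 (2 members in invasive carcinoma), and with the basal keratinocyte score 742 and 733 (0 members in both). In dysplasia against hyperplasia 1 member was called by DESeq2, limma-voom and the fit of those stages alone, and genes numbered 301 at an adjusted p under 0.01, 473 without a filter, 1972 in the fit of those stages, 511 with the muscle and 521 with the basal keratinocyte score. Upper-quartile factors moved the higher share among calls to 40.9%, against 57.7% with TMM. In carcinoma in situ against dysplasia genes numbered 62 at an adjusted p under 0.01, 327 without a filter, 1537 with DESeq2, 173 in the fit of those stages, 2194 with the muscle and 411 with the endothelial score, and the higher share was 67.8% with upper-quartile factors, against 54.8%. In invasive carcinoma against hyperplasia genes numbered 4009 at an adjusted p under 0.01, 1466 with the muscle score (1 member), 151 with the endothelial and 538 with the basal keratinocyte score (0 members in both). There Tsc22d3 turned to 0.01 with the endothelial and 0.02 with the basal keratinocyte score, and Nr3c1 to 0.06 with the endothelial score; the scores themselves differ between stages, and the cause was not tested. Endothelial, basal keratinocyte and adipocyte scores, and leaving out D01 for the lists and correlations, were chosen after seeing the data.

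Sample numbers are only partly shared across stages. Those of C09, C10, C11 and C12 occur at no other stage, and the carcinoma stages share none with each other. Invasive carcinoma shares only number 3 with normal tissue. Samples of the same number were little more alike than others (median r of deviations 0.0489, from -0.564 to 0.512, against -0.00384, from -0.503 to 0.713). The labels do not say if equal numbers mark a pair, and these medians cannot settle it. A fit blocked by number has fewer samples to compare within a number, and the part of this in its counts was not tested. With the number as a replicate block, members called were 2 in invasive carcinoma against hyperplasia (Klf9 and Sgk1) and 1 in dysplasia against hyperplasia (Tsc22d3, -0.51, adjusted p = 0.036), and genes called were 1684 in invasive carcinoma against hyperplasia, 3759 against normal tissue (4 members, without Nr3c1 at -0.35, adjusted p = 0.0534) and 282 in carcinoma in situ against dysplasia.

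The normal group of 3 samples limits every comparison with it: without D01 the remaining pair is assumed to vary like the other stages. Counts of Fam107a as low as 29 limit its precision in single samples.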
